A study of Mus musculus with 15 samples.

Results

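Immediate-early genes were read in single ovaries of UM-HET3 mice, a genetically heterogeneous stock in which each animal has its own genotype. The set was given by name as 10 genes: Fos, Fosb, Jun, Junb, Jund, Egr1, Ier2, Zfp36, Atf3 and Nr4a1. Of these, 9 were found by symbol among the 24656 genes listed, and Fos was not analysed here. Each of the 9 reached the minimum level required for testing. The canagliflozin group held 12-month-old mice that had received the drug for 6 months, from 6 to 12 months of age. Canagliflozin is an inhibitor of the glucose transporter SGLT2. The 12-month controls were control mice of the same age, and the 6-month controls were control mice of 6 months. Each group had 5 mice, and 1 ovary of each mouse gave 1 polyadenylated RNA library. All 15 libraries are whole ovaries, so the cell type that holds a transcript is not resolved, and fewer cells of a type cannot be told apart from less RNA per cell. The labels do not state estrous stage, time of day or handling of the ovary before extraction, and they describe the extraction for the 12-month groups.

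Immediate-early genes are transcribed within minutes of a stimulus, without new protein synthesis, through transcription factors that are already in the cell and are phosphorylated by MAP kinases or protein kinase A. Their own products are largely transcription factors that switch on a second wave of genes, and their mRNAs are short-lived. In the ovary they are known to respond to gonadotropins, among them the LH surge that triggers ovulation, as well as to growth factors and stress. Fos and Jun family proteins pair as AP-1, Egr1 is a zinc-finger transcription factor, Nr4a1 is an orphan nuclear receptor, and Zfp36 (tristetraprolin) binds AU-rich mRNAs and speeds their decay.

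The measured value is a normalised read count, the reads of a gene divided by 1 size factor per library. Recovered depth ran from 8472205 to 13046600 reads in the canagliflozin group, from 11309530 to 13108281 in the 12-month controls and from 11750426 to 13629491 in the 6-month controls. The labels instead state a depth of about 20000 reads, and the recovered totals are used here. The fewest reads behind any value of a member were 11, for Fosb in 12-month control replicates 3 and 5, and the most were 8037, for Egr1 in canagliflozin replicate 3. P-values measure the spread between these 15 animals. One library stood apart and enters every comparison with the canagliflozin group. In canagliflozin replicate 3 each of the 9 members had its highest level of all 15 ovaries, while 6.34% of the 17569 genes tested were highest in that library. Its depth was 12465194 reads. Its share of mitochondrially encoded reads was 7.23%, inside the 4.84 to 9.37% of the canagliflozin group, while the shares were 3.70 to 4.46% in the 12-month controls and 2.72 to 3.19% in the 6-month controls. That share therefore differed between the groups along with the comparisons below, and its part in them was not tested. Fold changes of some members without canagliflozin replicate 3 are given with the comparisons that include the canagliflozin group.

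Promoter sequences are shown for 4 members, each with at least 1 match to a motif named below. Whether such matches bear on how levels of the members varied together was not tested. Of the 9 measured members 7 had an entry in the RefSeq promoter table (build GRCm38.p6), and Egr1 and Ier2 had none. The 250 bases before the annotated start are printed 5′ to 3′ on the strand of the gene. The windows are chr7:19310046-19310295 (minus strand) for Fosb, chr4:95052223-95052472 (minus) for Jun, chr7:28379229-28379478 (minus) for Zfp36 and chr15:101266596-101266845 (plus) for Nr4a1. Capitals mark matches, on either strand, to the motifs named below.
Fosb: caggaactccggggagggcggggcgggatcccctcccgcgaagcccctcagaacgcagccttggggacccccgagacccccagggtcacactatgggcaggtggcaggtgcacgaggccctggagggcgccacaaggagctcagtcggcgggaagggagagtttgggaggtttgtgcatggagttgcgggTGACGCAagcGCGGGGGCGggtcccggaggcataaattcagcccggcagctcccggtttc
Jun: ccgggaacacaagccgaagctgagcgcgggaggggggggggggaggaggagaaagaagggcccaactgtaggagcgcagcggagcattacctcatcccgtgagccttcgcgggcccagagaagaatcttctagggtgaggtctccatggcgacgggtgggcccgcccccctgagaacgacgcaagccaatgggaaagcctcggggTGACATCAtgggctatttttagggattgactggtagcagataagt
Zfp36: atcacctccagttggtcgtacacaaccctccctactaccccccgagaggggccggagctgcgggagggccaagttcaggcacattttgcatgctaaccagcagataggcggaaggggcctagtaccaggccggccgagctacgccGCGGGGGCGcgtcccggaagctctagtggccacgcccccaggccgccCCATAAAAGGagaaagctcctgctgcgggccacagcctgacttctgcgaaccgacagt
Nr4a1: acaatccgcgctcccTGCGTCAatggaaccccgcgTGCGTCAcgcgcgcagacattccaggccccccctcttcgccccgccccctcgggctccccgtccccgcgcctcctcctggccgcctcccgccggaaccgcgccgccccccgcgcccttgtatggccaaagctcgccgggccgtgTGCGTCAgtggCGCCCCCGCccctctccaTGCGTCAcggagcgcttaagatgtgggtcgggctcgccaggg

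The CArG box, bound by serum response factor, was present once in Zfp36, with its first base at -58 from the start, and in 1.47% of all 32851 promoter windows. TGACGCA, a variant of the cAMP response element, occurred 4 times in Nr4a1 (first bases at -235, -215, -71 and -42) and once in Fosb at -60, against 1.75% of all windows with at least 1 match. That variant was added after the sequences had been seen. The perfect element TGACGTCA and the AP-1 site TGANTCA were in none of the 7 members, against 1.55% and 6.75% of all windows. The wider form TGANNTCA was in Jun at -45 and in Jund at -61, against 11.9% of windows. GCGNGGGCG, the site of Egr proteins, was in Fosb, Zfp36 and Nr4a1, against 4.70% of windows, and in Nr4a1 its match at -60 lies between the 2 nearest matches of TGACGCA. Atf3 and Junb had no match to any of these motifs, and no motif was in more than 3 of the 7 members. A match of letters is a description of the window, not a measured binding site.

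Fosb, a dimer partner of the Jun proteins in AP-1, had the widest range of the 9 members. It measured 271, 25.3, 638, 28.7 and 82.1 normalised reads in canagliflozin replicates 1 to 5. Values were 361, 189, 10.1, 325 and 9.55 in the 12-month controls and 46.4, 15.4, 16.6, 102 and 30.7 in the 6-month controls. The highest ovary was 66.8-fold above the lowest, both 12-month groups contained high and low ovaries, and all 3 groups overlapped. The 12-month controls split without intermediate values, with 3 ovaries at 189 to 361 and 2 at about 10.

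Jun, the AP-1 subunit that also activates its own promoter, varied less, 4.45-fold over the 15 ovaries. It measured 2114, 1588, 4173, 4003 and 1269 in the canagliflozin group, 2591, 1326, 938, 3112 and 2057 in the 12-month controls and 1940.4, 1927, 1274, 3879 and 1775 in the 6-month controls. Canagliflozin replicates 3 and 4 and 6-month control replicate 4 were the highest, and the groups overlapped. Canagliflozin replicate 4 was the second highest ovary for Jun and had only 28.7 for Fosb.

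Junb, a Jun relative that can oppose it at some promoters, was set apart by a single library. It measured 1432, 1205, 5379, 781 and 1024 in the canagliflozin group. The 12-month controls had 1118, 1391, 448, 963 and 526, and the 6-month controls 1757, 1456, 523, 729 and 418. The ovaries other than canagliflozin replicate 3 spanned 418 to 1757, and replicate 3 lay 4.83-fold above the median of the other canagliflozin ovaries.

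Jund, the Jun family member that is present in most resting cells, was the steadiest, with a 2.10-fold range. It measured 2986, 3385, 4889.5, 3876 and 2449 in the canagliflozin group, 2643, 2657, 3187, 2386 and 2325 in the 12-month controls and 2865, 2944, 2928, 2666 and 2336 in the 6-month controls. Its within-group SD on the log2 scale, 0.25, was larger than that of 46.0% of the genes tested. Among the 1000 genes nearest to Jund in level, 68.6% had a smaller SD. For the other 8 members the shares over all genes tested ran from 91.4% (Jun) to 99.6% (Fosb). These shares describe the spread and are not tests.

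Egr1, induced in granulosa cells by gonadotropins and required for LH beta expression in the pituitary, was very high in 2 of 15 ovaries. It measured 1397, 1067, 7929, 1378 and 2777 in the canagliflozin group, 1318, 1605, 1000.5, 1901 and 1398 in the 12-month controls and 7232, 1601, 649, 1139 and 913 in the 6-month controls. The 12-month controls stayed within 1000.5 to 1901. The 6-month control replicate 1 was 7.05-fold above the median of the other 6-month ovaries, with Fosb at 46.4 and Atf3 at 25.6, the lowest Atf3 value of all.

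Nr4a1 (Nur77), a nuclear receptor induced by LH that acts on steroidogenic gene promoters, was set apart by low ovaries more than by high ones. It measured 1898, 2437, 4871, 3129 and 2625 in the canagliflozin group, 3707, 2322, 393, 2535 and 1180.1 in the 12-month controls and 3534, 3765, 1747, 2641 and 844 in the 6-month controls. In 12-month control replicate 3 it was at 393, the lowest level of 15 ovaries. That library was also the lowest for Jun and Zfp36, and its median rank over the 9 members was 14 of 15.

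Ier2, a nuclear protein that is induced with the Fos and Jun genes, had the smallest adjusted p of the 9 in the canagliflozin group against 6-month controls. It measured 1106, 649.6, 6872, 944 and 1226 in the canagliflozin group, 760.0, 952, 762, 869.6 and 579 in the 12-month controls and 1395, 610.5, 448, 454 and 509.6 in the 6-month controls. Canagliflozin replicate 3 was 6.70-fold above the median of the other canagliflozin ovaries. Apart from 6-month control replicate 1, every 6-month ovary was below every canagliflozin ovary.

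Zfp36, which limits inflammatory mRNAs, measured 943, 1038, 4389, 1184 and 826 in the canagliflozin group, 1049, 894, 376, 897 and 657 in the 12-month controls and 1533, 716, 449, 861 and 518 in the 6-month controls. Replicate 3 was again 4.43-fold above the median of the other canagliflozin ovaries, and those other ovaries lay within the range of the 6-month controls, with 1 of them, at 1184, above every 12-month control. Atf3, a stress-induced partner of the Jun proteins that often represses, measured 183, 43.2, 433, 61.5 and 43.0 in the canagliflozin group. Its values were 184, 114, 34.9, 201.0 and 26.1 in the 12-month controls and 25.6, 42.7, 40.9, 98.3 and 37.7 in the 6-month controls. The 6 ovaries highest for Atf3 were also the 6 highest for Fosb.

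**Figure D1:**
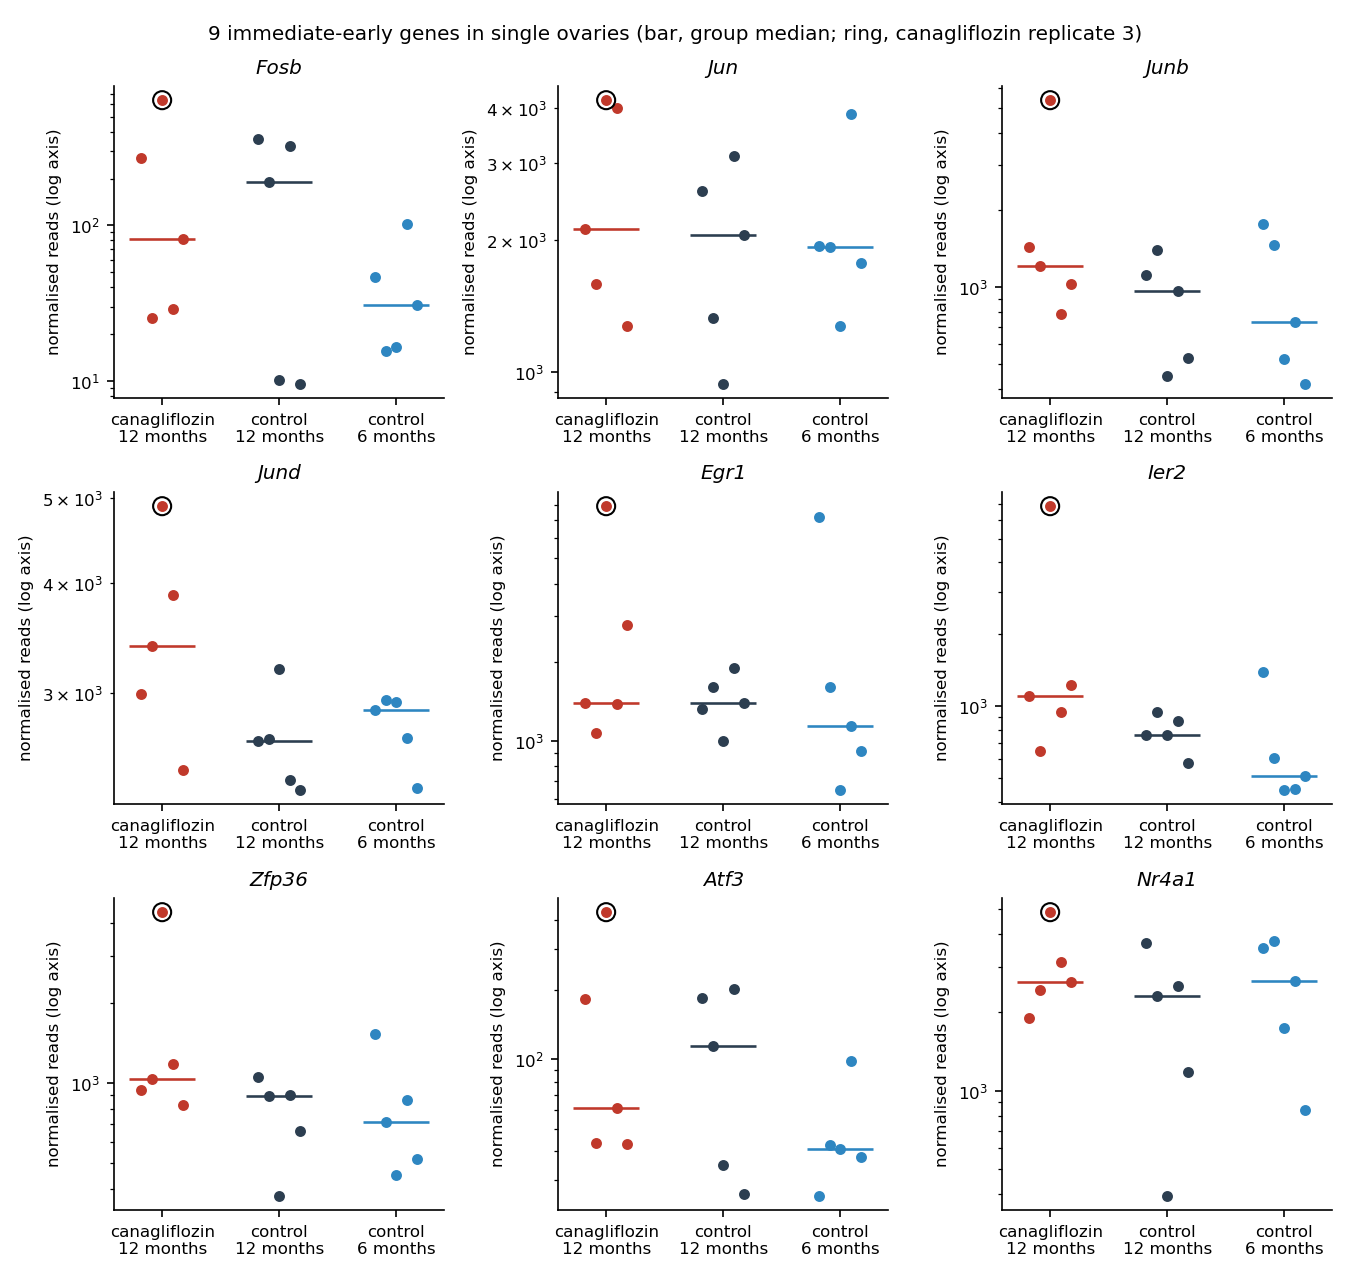
Normalised reads (log axis, a scale for each gene) of the 9 members in each ovary, with points for the 5 replicates, a bar for the group median and a ring for canagliflozin replicate 3. The ringed ovary is the highest point in every panel, and for Egr1 only 6-month control replicate 1, at 7232, comes near it.

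Canagliflozin against 12-month controls asks what the drug changed at equal age. No member passed the threshold, although all 9 had a positive log2 fold change. By limma on log2(value + 1), with Benjamini-Hochberg adjustment over all genes tested, 0 of 9 had an adjusted p under 0.05, where 0.00569% of all genes tested (1 gene) were called. Jund alone had an unadjusted p under 0.05 by limma, as did 9.20% of all genes tested. On recovered reads, edgeR's quasi-likelihood test and DESeq2 also called 0 members, with 3 and 4 at an unadjusted p under 0.05. The share of all genes under that unadjusted p was taken for limma only. The median log2 fold change over the 9 was 0.60, beside -0.0019 over all genes tested, of which 49.6% were positive. Members vary together in the same libraries, so their 9 signs are not independent readings. For none of the 9 were the groups free of overlap, while 1.05% of all genes had groups that did not overlap.

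The 95% intervals of 8 of the 9 members included 0. Jund averaged 3517 ± 929 after canagliflozin and 2640 ± 340.3 in the 12-month controls (SD, n = 5 each; log2 fold change 0.38, 95% interval 0.06 to 0.70, limma adjusted p = 0.482). Junb averaged 1964 ± 1924 after canagliflozin and 889 ± 399 in the 12-month controls (log2 fold change 0.88, interval -0.28 to 2.04, limma adjusted p = 0.623). Zfp36 averaged 1676 ± 1522 after canagliflozin and 775 ± 263 in the 12-month controls (log2 fold change 0.87, interval -0.10 to 1.83, limma adjusted p = 0.567). Their SDs in the canagliflozin group were close to their means, unlike that of Jund. Ier2 averaged 2159 ± 2643 after canagliflozin and 784 ± 140.1 in the 12-month controls (log2 fold change 0.87, interval -0.23 to 1.98, limma adjusted p = 0.615). Fosb had the widest interval, -2.12 to 2.96 around 0.42 (limma adjusted p = 0.922). The other log2 fold changes were 0.84 for Nr4a1, 0.60 for Egr1, 0.36 for Jun and 0.24 for Atf3, with limma adjusted p of 0.654 to 0.926.

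The size of these differences depended on single animals, among them canagliflozin replicate 3. Without canagliflozin replicate 3 the median log2 fold change of the 9 was 0.25, with 7 positive. Junb then had 0.42, Zfp36 0.44, Ier2 0.30, Jund 0.25 and Egr1 0.13, while Fosb and Atf3 were at -0.24 and -0.29. Nr4a1 had 0.64 without it and 0.33 without 12-month control replicate 3. Without 12-month control replicate 3 or replicate 5, 7 were positive, with medians of 0.45 and 0.60. The median was 0.91 without 12-month control replicate 4. Without canagliflozin replicate 3 and 12-month control replicate 3 together, an alternative chosen after the levels had been seen, 6 were positive, the median was 0.14 and 0 were called.

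The 12-month against the 6-month controls measure age in ovaries without the drug. The log2 fold changes of the members had mixed signs. Fosb averaged 179 ± 167 at 12 months and 42.2 ± 35.6 at 6 months (SD, n = 5 each; log2 fold change 1.18, interval -1.36 to 3.72, limma adjusted p = 0.565). Leaving out single libraries took the Fosb value from 0.62 without 12-month control replicate 1 to 1.89 without 12-month control replicate 5, and it was 2.06 by edgeR and 2.09 by DESeq2. It was 0.65 without 12-month control replicate 4 and 1.87 without 12-month control replicate 3. Atf3 averaged 112 ± 81.4 at 12 months and 49.0 ± 28.4 at 6 months (0.90, interval -0.61 to 2.40, limma adjusted p = 0.446). Ier2 was the only other positive one, at 0.33, and Nr4a1 was the most negative, at -0.47. The remaining 5 lay between -0.13 for Jun and -0.02 for Zfp36. In this comparison 0 of 9 members were called by limma, edgeR or DESeq2, where 12.4% of genes tested were called by limma. By limma and edgeR 0 had an unadjusted p under 0.05, and by DESeq2 1 did, while 27.4% of all genes tested did by limma. Groups overlapped for all 9, while 13.7% of all genes had groups that did not. The median over the 9 was -0.04, beside 0.0039 over all genes. The direction of several members rested on single libraries: without 12-month control replicate 3, 8 of 9 were positive (median 0.17), and without 6-month control replicate 1, 6 were (median 0.25). Without 12-month control replicate 5 or 6-month control replicate 4, 5 were positive.

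Canagliflozin at 12 months against 6-month controls joins age and drug, and shares its groups with both comparisons above. Each of the 9 log2 fold changes was positive, and their median was 0.84, beside 0.0097 for the genes tested. As above, the 9 signs are not independent readings. By limma 0 of 9 were called, where 28.4% of genes tested were. Ier2 and Jund had an unadjusted p under 0.05 by limma, as did 40.5% of genes tested. Groups overlapped for all 9, against 18.5% of genes without overlap. Ier2 averaged 2159 ± 2643 after canagliflozin and 683 ± 403 in the 6-month controls (log2 fold change 1.20, interval 0.10 to 2.31, limma adjusted p = 0.0955). Fosb had the highest log2 fold change, 1.60, and Jun the lowest, 0.22, and Atf3 was at 1.14, Zfp36 at 0.85, Junb at 0.84, Egr1 at 0.51, Nr4a1 at 0.37 and Jund at 0.32. On recovered reads, edgeR called 5174 and DESeq2 5769 of the 17569 genes tested. Among the 9 members, Ier2 was called there by edgeR (adjusted p = 0.0465) and DESeq2 (adjusted p = 0.0181), each of which called no other member. Its log2 fold change was 0.63 without canagliflozin replicate 3 alone (limma adjusted p = 0.138). It was called by limma without canagliflozin replicate 2 (adjusted p = 0.0464) or 6-month control replicate 1 (adjusted p = 0.0463). Without both canagliflozin replicate 3 and 6-month control replicate 1, the libraries highest for it in either group, its log2 fold change was 0.93 (limma adjusted p = 0.00572). Those libraries were left out because of their levels, so that value is a description. Jund passed without canagliflozin replicate 5 (log2 fold change 0.44, limma adjusted p = 0.0235), and had 0.19 without canagliflozin replicate 3 (limma adjusted p = 0.309). All 9 stayed positive without canagliflozin replicate 3, with a median of 0.37. They then ran from 0.016 for Jun to 0.94 for Fosb.

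**Figure D2:**
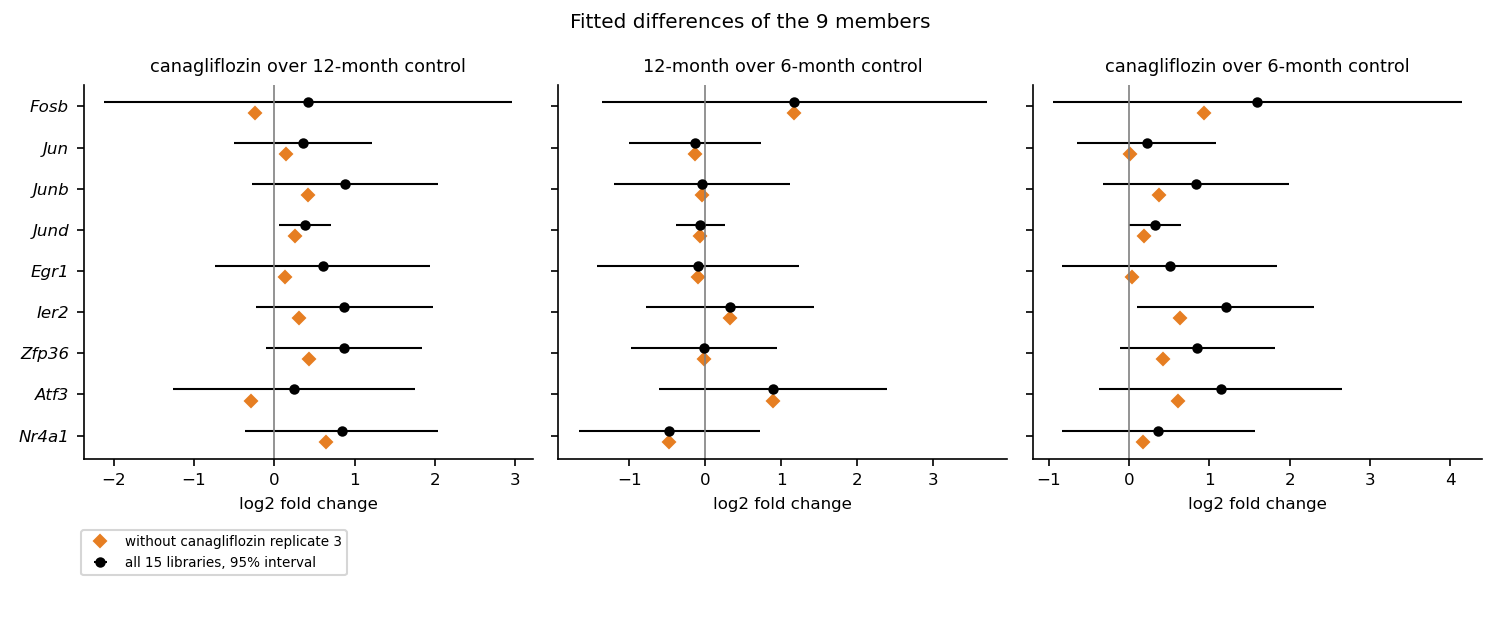
Fitted log2 fold change (horizontal axis) of each member in the 3 comparisons, with black points and 95% intervals for all 15 libraries and orange diamonds without canagliflozin replicate 3. Against 12-month controls the diamonds of Fosb and Atf3 lie below 0, at -0.24 and -0.29, and none of the members passed the adjusted threshold with all libraries.

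Levels of many members went together over the ovaries. After each log2 level was centred on its group mean, all 36 pairs had a positive Pearson correlation over the 15 libraries, with a median of 0.53. Adjusted over the 36 pairs, 13 passed a permutation test within groups (100000 permutations, two-sided) by r, 11 by Spearman's rho and 10 by both. The median was 0.39 without canagliflozin replicate 3, and 29 of 36 were then positive.

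The closest pair was Fosb and Atf3 (r = 0.90, permutation p = 0.00093, adjusted 0.00837; rho = 0.89, p = 0.00128, adjusted 0.0119), with r = 0.86 without the 2 ovaries farthest from the median of Fosb. Egr1 and Ier2 followed (r = 0.88, permutation p = 0.00026, adjusted 0.00774; rho = 0.84, p = 0.00052, adjusted 0.00936), with r = 0.70 without the 2 ovaries farthest for Egr1. Zfp36 and Nr4a1 had r = 0.74 (permutation p = 0.00043, adjusted 0.00774) and rho = 0.86 (p = 0.00037, adjusted 0.00936), with r = 0.84 without the 2 farthest for Zfp36. Members of these pairs were also linked with each other: Egr1 and Zfp36 had r = 0.81 (permutation p = 0.00356, adjusted 0.016) and rho = 0.69 (p = 0.00536, adjusted 0.025), with r = 0.49 without the 2 farthest for Egr1. Fosb and Zfp36 had r = 0.65 (permutation p = 0.00709, adjusted 0.0284) and rho = 0.64 (p = 0.012, adjusted 0.0392), with r = 0.61 without the 2 farthest for Fosb. Junb also passed by both r and rho with Zfp36, Ier2, Egr1 and Nr4a1. Its r was 0.87, 0.81, 0.78 and 0.73 (permutation adjusted p = 0.00936, 0.0152, 0.0137 and 0.00837). Without the 2 farthest for Junb these were 0.70, 0.52, 0.54 and 0.75. A pair that did not pass was Egr1 and Atf3, with r = 0.25 (permutation p = 0.379, adjusted 0.455) and rho = 0.24 (p = 0.349, adjusted 0.448), and with r = 0.18 without the 2 farthest for Egr1 and -0.11 without canagliflozin replicate 3. No pair with Jund passed, with r from 0.03 to 0.53. Whether 1 pair was closer than another was not tested.

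**Figure D3:**
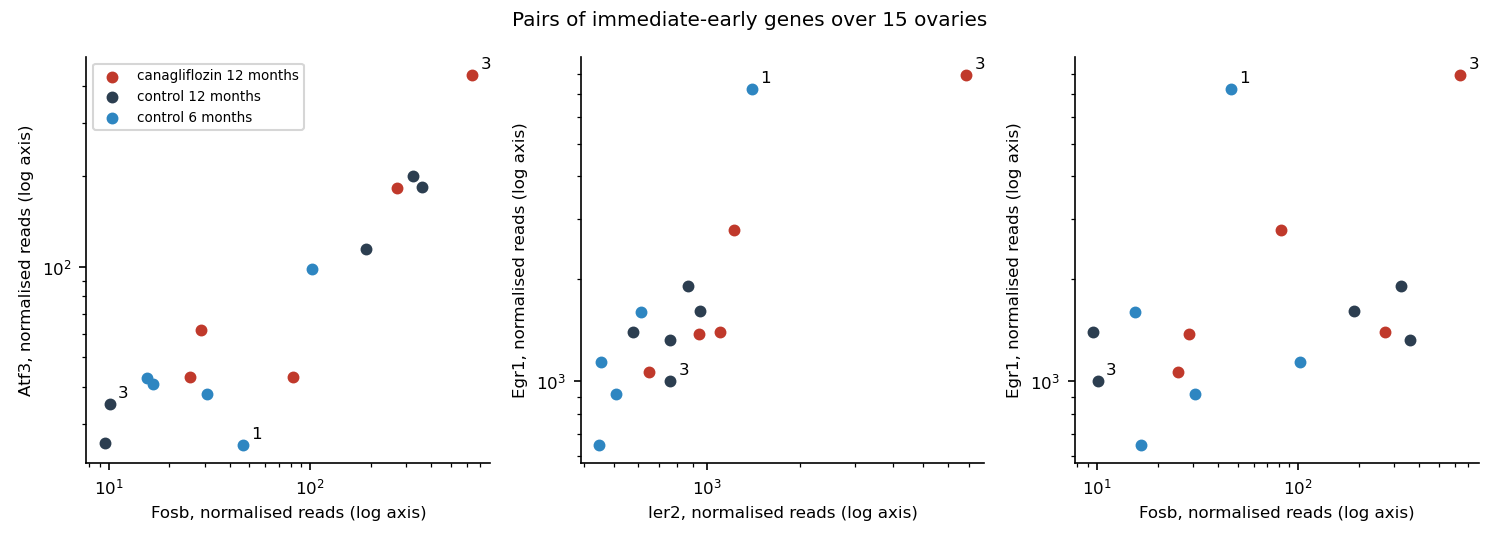
Normalised reads of 2 members in each of the 15 ovaries on log axes, coloured by group, with replicate numbers beside canagliflozin replicate 3, 12-month control replicate 3 and 6-month control replicate 1. Fosb and Atf3 lie along 1 line, while 6-month control replicate 1 is high for Egr1 at 7232 and has Fosb at 46.4.

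Genes outside the set with a like pattern were ranked by correlation with the mean of the 9 centred members over the 15 libraries, among tested genes with a mean of at least 50. This is a description without a test, and these genes share libraries and depth with the members. Btg2, an antiproliferative early-response gene, came first (r = 0.94), at 4550.1 in canagliflozin replicate 3 beside a median of 727 in the other canagliflozin ovaries. Egr3, a relative of Egr1, came next (r = 0.92), at 1479.9 beside 96.1. Then came Clp1, an RNA kinase of mRNA 3′ processing (r = 0.91), Tnfrsf12a, the TWEAK receptor (0.89), Csrnp1, a nuclear early-response protein (0.89), Dusp5, a nuclear phosphatase of ERK (0.88), Rcan1, a calcineurin regulator (0.87), and Ltbp3, a TGF-beta binding protein (0.86). Clp1 differed little between ovaries, with 190.4 in replicate 3 beside 159, so that its r reflects small shifts. Of the 8, 4 were on the lists of related genes.

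**Figure D4:**
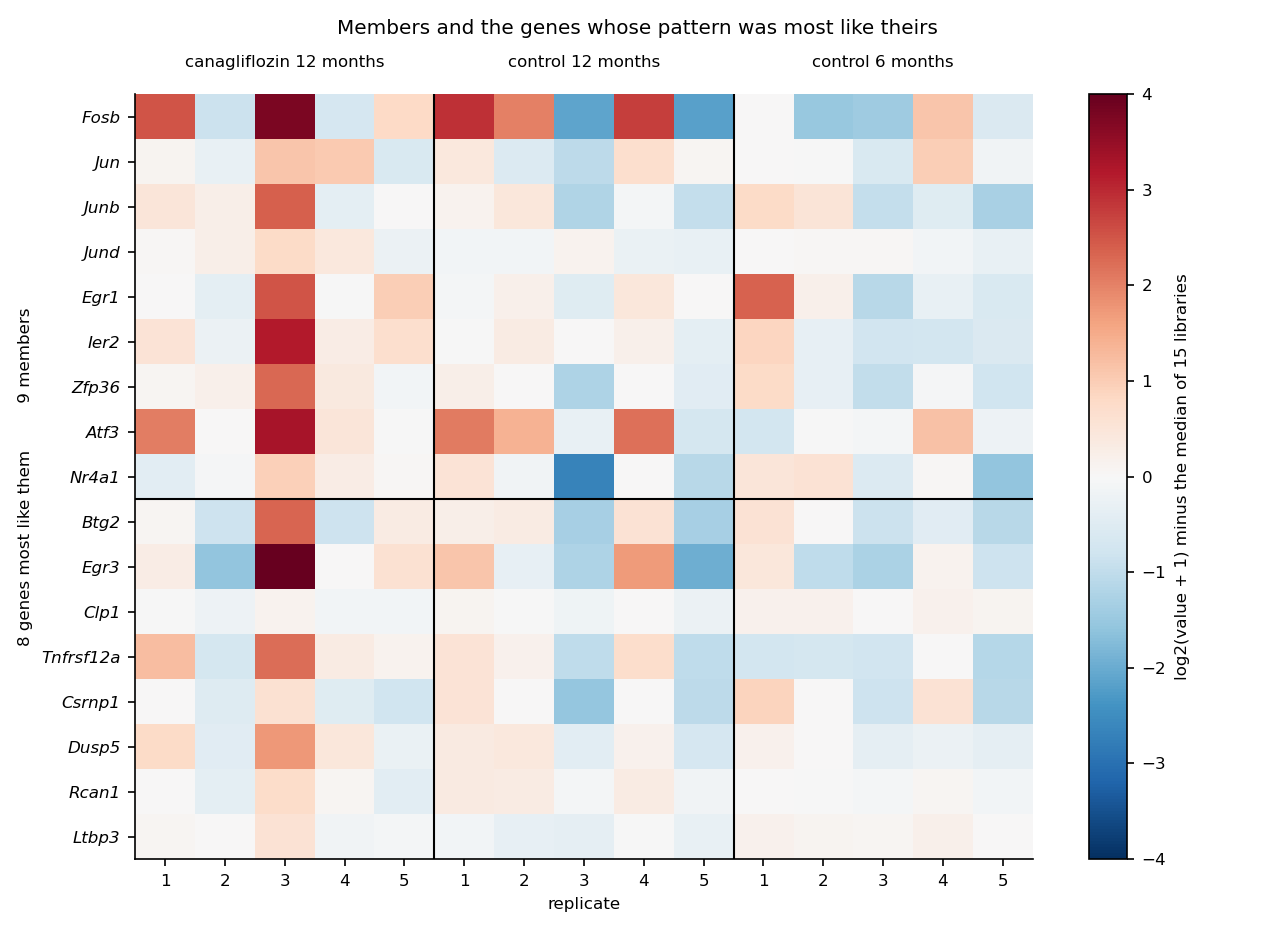
Log2(value + 1) minus the median of the 15 libraries (colour, ending at 4 in either direction) for the 9 members and, below the line, the 8 genes most like them, with libraries as columns by group. Canagliflozin replicate 3 is the darkest red column, 12-month control replicates 3 and 5 are blue for Fosb, and Clp1 hardly varies.

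Related genes were read from 8 lists of kin, partners, other rapid-response genes, upstream kinases and factors, feedback inhibitors, AU-rich cytokine mRNAs, LH-induced genes and heat shock genes. Of 121 genes, 115 were found and 107 were tested. In canagliflozin against 12-month controls 0 of 107 were called by limma, edgeR or DESeq2, and the median log2 fold change was 0.05. The smallest p-values were those of Plk2, a stress-induced kinase (log2 fold change 0.41, limma adjusted p = 0.462), Nfkbiz, an NF-kappaB cofactor (0.51, adjusted p = 0.473), and Pgr, the progesterone receptor (-0.93, adjusted p = 0.482).

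With age 6 of the 107 rose and 6 fell, or 11.2%, close to the 12.4% of all genes. Srf, which binds the CArG box, fell to 588 ± 74.9 at 12 months, against 832 ± 50.05 at 6 months (SD, n = 5 each; log2 fold change -0.51, SE 0.11, limma adjusted p = 0.00568). Zfp36l1 and Zfp36l2, relatives of Zfp36 that also destabilise AU-rich mRNAs, fell with log2 fold changes of -0.77 (limma adjusted p = 0.00611) and -0.49 (limma adjusted p = 0.0105). All 3 were called in each of 15 fits that left out 1 library, at limma adjusted p of at most 0.0330. Rgs1, a G protein regulator of lymphocytes, rose 2.67-fold (limma adjusted p = 0.0142). Creb1, Elk4, Mapk8, Mapk9 and Rps6ka3 rose by log2 fold changes of 0.26 to 0.40, and Rps6ka1, Tob1 and Myc fell, with -0.44, -0.57 and -0.79. Of these calls, 5 were lost with some single libraries left out. Elk4 was lost without 6-month control replicate 1, and Tob1 without 12-month control replicate 5 or 6-month control replicate 1 or 4. Rps6ka3 was lost without replicate 1, 4 or 5 of the 12-month controls and without replicate 1 or 3 of the 6-month controls. Mapk9 was lost without replicate 1 or 5 at 12 months and without replicate 2 or 3 at 6 months. Myc was lost in 9 of 15 fits, without canagliflozin replicate 3, 12-month control replicate 1, 3 or 5, or any of the 6-month controls.

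Against the 6-month controls, 10 rose and 13 fell in the canagliflozin ovaries, 21.5% of the 107 beside 28.4% of all genes. Srf fell to 508 ± 65.9 after canagliflozin, against 832 ± 50.05 at 6 months (SD, n = 5 each; log2 fold change -0.72, limma adjusted p = 0.00023). Nfkbiz rose to 225 ± 29.9 in the canagliflozin group, against 115 ± 30.2 in the 6-month controls (1.98-fold, limma adjusted p = 0.00149). Gadd45a, a DNA damage and stress gene, rose to 2452 ± 722 in the canagliflozin group, against 1267 ± 404 in the 6-month controls (1.96-fold, limma adjusted p = 0.0132), with its highest value in canagliflozin replicate 3, at 3451. Dusp4, a MAP kinase phosphatase, fell to 16.1 ± 9.75 in the canagliflozin group, against 47.5 ± 19.8 in the 6-month controls (limma adjusted p = 0.00602). All 4 calls held in each of the 15 left-out fits. Other calls did not: Mapk14 was lost in 10 of these fits, Klf6 and Bag3 in 8 each, Plk2 in 7, Atf4 in 6 and Rps6ka1 in 4.

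Related genes were also read in the ovary where the members were highest. In canagliflozin replicate 3, 12 of 34 tested rapid-response genes, 3 of 10 kin and 3 of 13 feedback genes had their highest level of the 15 ovaries, beside the 6.34% of all genes. These counts were not tested, and those of kin and feedback genes are small. The kin summed to 10781 there, the 14th of 15, with Fosl2 at 4492 and Zfp36l1 at 1618 of that sum. The median ratio of a tested kin gene there to its median in the other 14 libraries was 1.28. None of 9 LH-induced, 9 heat shock, 17 upstream or 12 AP-1 partner genes had its highest level there, counts too small to set apart from the share of all genes. The summed heat shock level there was 24825, inside the 15679 to 31111 of the canagliflozin group, and the summed LH-induced level was 27032, inside 16515 to 64507. Star alone was 24751 of the LH-induced sum, and Hspa8 was 13008 of the heat shock sum, so these sums say little of the less abundant genes. Each tested gene was also set against its median in the other 14 libraries. The median of these ratios was 0.94 for LH-induced and 1.04 for heat shock genes. Dusp1, a feedback phosphatase, was at 3938 there, its highest value.

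Markers of ovarian and other cell types were read beside this library. Summed surface epithelium markers (10 of 10 tested) were 4262 in replicate 3, the highest of 15. Their sums ran from 1454 to 4262 in the canagliflozin group, with a median of 3404. They ran from 1337 to 2480 in the 12-month controls and from 1661 to 2721 in the 6-month controls. The canagliflozin median was above every control ovary, so high sums were not limited to replicate 3, where 6 of the 10 markers were highest. Summed granulosa markers in replicate 3 were 50540, rank 2 of 15. Of that sum Inha was 29443 and Inhba 15752, and none of the 6 granulosa markers was highest in replicate 3. Smooth muscle and macrophage sums there were each the 14th of 15, at 7040 and 1373. Summed red cell markers were 7442, second to 18087 in 12-month control replicate 3, the ovary with the lowest Nr4a1, Jun and Zfp36. The 3 neutrophil markers in the table summed to 6.91 in replicate 3 and to at most 17.8 in any library. The ovarian identity of all 15 libraries was clear from granulosa sums of at least 16049 and oocyte sums of at least 908. The part of any of these cell types in the levels of the members was not tested.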

How the data were processed

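Gene values were taken from the deposited table of 15 ovary libraries. From its values, the authors' signal per gene and library equals the reads of a gene over a size factor shared by all genes of that library. Per the submitters' processing notes, Partek 11.0 and build mm39 were used. No source used here names the aligner, counter, annotation release or normalization. Whole reads were recovered by dividing each value by the value of 1 read, with at least 99.99% of values whole within 0.1 read. In 3 libraries (canagliflozin replicates 4 and 5, 6-month control replicate 5) the value of 1 read was within 1% of 1, so the step by itself does not separate reads from rounded values. No column with values was left unmapped.

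Tested genes, 17569 of 24656, reached 10 in 5 or more libraries. The test was limma 3.58.1 (R 4.3.3; trend and robust variance) on log2(value + 1) over all 15 libraries. A fold change on that scale understates changes of low genes. P-values were adjusted by Benjamini-Hochberg over all genes tested, threshold 0.05. Intervals of fold changes are 95% intervals of the moderated fit. Alternatives were edgeR 4.0.16 and DESeq2 1.42.0 on recovered reads, voom, other filters, pseudocounts, groups in the fit, a replicate block and each library left out, and 2 settings added after seeing the data that left out 2 libraries. The limma fit was tested on simulated data. Every member was named, as were related genes called in any comparison or with the 3 smallest p, of which examples are given, and the 8 genes most like the members. Members and lists were chosen with earlier results of these data known. Genes were matched by symbol, or by Ensembl identifier where the symbol was an older one. Promoters are RefSeq's, of another build than the table's, and were matched by symbol.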

Additional observations from a re-analysis of the deposited data

Results flagged for a closer look

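In 8 of 27 groups of 5 ovaries (9 members in 3 groups), the highest ovary lay so far above the next that the gap exceeded 0.71 of the range of the group, a limit that chance passes in about 1 of 20 groups for normally distributed values. Over all genes tested, 5.79% of groups passed it on normalised reads. On the log2(value + 1) scale 3 of the 27 groups of members passed it, beside 5.09% over all genes. The 27 groups are not independent, since members vary together in the same libraries. The cases named next are those on normalised reads, and not all of them passed on the log2 scale, which the limma tests used. Canagliflozin replicate 3 stood apart for Junb (5379 normalised reads), Egr1 (7929), Ier2 (6872) and Zfp36 (4389). The 6-month control replicate 1 stood apart for Egr1 (7232) and Ier2 (1395). The 6-month control replicate 4 stood apart for Jun (3879) and Atf3 (98.3). No ovary of the 12-month controls stood apart by this measure for any member, and no member had an ovary that stood apart on the low side.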

How the results depend on the processing

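In canagliflozin against 6-month controls the number of members called was 1 instead of 0 with edgeR (TMM or median-of-ratios), DESeq2, voom, a threshold of 0.1, the replicate block, and without canagliflozin replicate 3 and 6-month control replicate 1 together, and it was 0 to 1 with single libraries left out. It was Ier2 with all of these except voom, the block and canagliflozin replicate 5 left out, where it was Jund (adjusted p = 0.0436, 0.0482 and 0.0235). Of all 17569 genes tested, edgeR (TMM) called 5174 and DESeq2 5769 in this comparison. Replicate numbers did not pair libraries (correlation of deviations -0.30 to 0.25), and the replicate block changed no other call of a member. Without those 2 libraries together, 1 member was called with age (Ier2, log2 fold change 0.63, limma adjusted p = 0.0467). In canagliflozin against 12-month controls 0 members were called under every setting run, while limma called 1 of all genes, edgeR 9 and DESeq2 59. Of 729 values of single members, 683 kept direction and side of the threshold, 36 changed sign and 10 passed it. The 683 include settings that leave a fold change the same by design, where its sign could not change. Those were other filters, only the groups compared, the replicate block, and a left-out library of the group not compared. None of the values that changed sign was called, and the cause was not tested. With single libraries left out, log2 fold changes against 12-month controls ran from -0.29 to 0.98 for Fosb and -0.29 to 0.56 for Atf3, and with age from -0.32 to 0.11 for Jun, -0.29 to 0.23 for Junb, -0.40 to 0.47 for Egr1, -0.19 to 0.25 for Zfp36 and -0.82 to 0.033 for Nr4a1. With voom, Fosb was -0.0058 against 12-month controls, and with age Jun was 0.082, Junb 0.026 and Zfp36 0.077. Without canagliflozin replicate 3 and 6-month control replicate 1, Fosb was -0.24 and Atf3 -0.29 against 12-month controls, and with age Junb was 0.23, Egr1 0.47 and Zfp36 0.25. Without canagliflozin replicate 3 and 12-month control replicate 3, Fosb was -0.94, Jun -0.092 and Atf3 -0.60 against 12-month controls, and with age Jun was 0.11, Junb 0.17, Egr1 0.030, Zfp36 0.22 and Nr4a1 0.033. Depth limits Fosb most, with 11 reads in its lowest libraries.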

Other observations

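Among the 40 genes most like the members, 11 were on the lists of related genes. Further ones, chosen here after their values were seen, were Cdkn1a, the cell cycle inhibitor p21 (2255 in canagliflozin replicate 3 beside a median of 716 in the other canagliflozin ovaries, r = 0.86), Srxn1, an antioxidant enzyme (3045 beside 1036, r = 0.86), and Timp1, an inhibitor of matrix metalloproteinases (20818 beside 2211, r = 0.77). Without canagliflozin replicate 3 their r with the mean of the members was 0.87, 0.80 and 0.57.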
